A study of Rattus norvegicus with 2 samples.

Results

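A set of 10 genes that make and read the hormonal signals for phosphate and vitamin D was examined in the kidneys of salt-loaded Dahl salt-sensitive rats with and without a phosphate binder. They encode Klotho (Kl), FGF23 (Fgf23), FGF receptors (Fgfr1, Fgfr4), the parathyroid hormone receptor (Pth1r), the vitamin D receptor and its partner (Vdr, Rxra), the enzymes that make and break down active vitamin D (Cyp27b1, Cyp24a1), and stanniocalcin 1 (Stc1). A probe set, the group of array probes combined into 1 value, was taken for a gene when the platform annotation gave it that gene symbol and no other. All 10 genes were found, each with 1 probe set, so that 10 of 68842 probe sets and 10 of 22093 gene symbols were used and no gene had a second reading.

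Both groups were male Dahl salt-sensitive rats, bought at 3 weeks of age and fed chow with 8% NaCl for 4 weeks. DSH rats (labelled control) received the salt alone. DSH+2.5%SF rats (labelled 2.5%SF) were fed the same salt, and 1 week into it SF was added, at 25 mg per g of chow. SF is sucroferric oxyhydroxide, an iron-based binder of phosphate in the gut. For each group a single pool of whole-kidney RNA from 3 rats was hybridized to 1 array, and the labels name the strain and the binder but not the salt, which is taken from the study's methods. No rats on normal salt are among the arrays. Since each group is 1 pool, replicate error could not be measured and neither tests nor p-values are given, and every ratio below compares those 2 pools. In whole kidney, fewer cells of a type and less RNA per cell cannot be told apart.

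FGF23 is a bone hormone that lowers phosphate reabsorption in the proximal tubule. It binds an FGF receptor together with Klotho, a membrane protein made chiefly in the distal convoluted tubule and also in the proximal tubule. FGF23 lowers Cyp27b1, which makes calcitriol, the active form of vitamin D, and raises Cyp24a1, which degrades it. Parathyroid hormone is also phosphaturic but acts on the 2 enzymes in the opposite way, and calcitriol itself, through the vitamin D receptor paired with a retinoid X receptor, induces Cyp24a1.

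The intensities are RMA values on a linear scale, in which the median of all probe sets was 22.9 in DSH and 23.7 in DSH+2.5%SF. For each gene the log2 of the DSH+2.5%SF to DSH ratio was taken, together with its Z-score, the distance of that value from the mean of all probe sets (0.03) in units of their SD (0.34). A gene was counted as higher at a Z-score of at least 2.0 and a ratio of at least 1.5, and as lower at a Z-score of at most −2.0 and a ratio of at most 0.66. Because probes differ in their response, the intensity of a gene was set only against the same gene in the other pool. Sums over a marker list are also given and mostly reflect its brightest genes. For 2018 genes (9.13%) the deposited value was exactly the same in both pools. The reason for these ties is not known, and such genes are called tied and are not read as an absence of change.

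Of the 10 genes, 3 passed these criteria. Kl was 1.64-fold higher and Stc1 1.76-fold higher in DSH+2.5%SF, whereas Cyp24a1 was at 50.05% of its DSH level. Thus 2 of 10 were higher and 1 of 10 was lower, where 1.09% of all genes were higher and 1.36% lower. As the 10 genes were chosen with earlier results of these data known, the counts describe them and do not measure an excess. The other 7 lay between 1.33-fold lower and 1.18-fold higher. The median log2 ratio of the 10 genes was 0.01, against 0 over all genes, with 5 above 0 and 5 below.

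**Figure D1:**
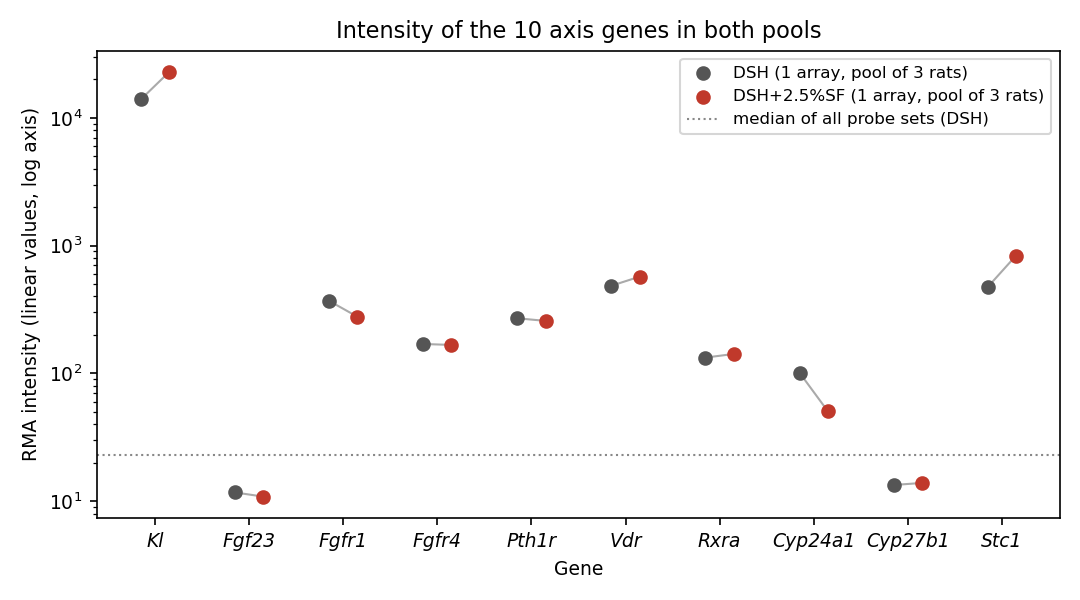
RMA intensity (log axis) of each of the 10 genes in the DSH pool (grey) and the DSH+2.5%SF pool (red), 1 array each, with no error bars because there are no replicates; the dotted line is the median of all probe sets in DSH. The lines of Kl and Stc1 slope up, that of Cyp24a1 slopes down from 101 to 50.6, and Fgf23 and Cyp27b1 lie below the line in both pools.

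Kl had an intensity of 13961 in the DSH pool and 22855 in the DSH+2.5%SF pool. The log2 ratio was 0.71 and the Z-score 2.01, just past the limit. By ratio Kl stood at rank 233 from the top among the 22093 genes. It was the brightest of the 10 probe sets, and in this range the ratios were widely spread, with an SD of 0.52 over the 1000 probe sets closest to it in brightness. Against those neighbors its Z-score was 1.45, so the call was lost there.

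Kl is expressed in the convoluted tubules, and marker genes of these segments were read in the same pools. Among 3 markers of the distal convoluted tubule none passed. Slc12a3, the thiazide-sensitive sodium chloride cotransporter, was at 6824 in the DSH pool and 6487 with SF, the magnesium channel gene Trpm6 was tied at 110, and Pvalb was dim. The log2 ratios of the list ran from −0.07 to 0.15. Its summed intensity, most of it from Slc12a3, was 6949 in the DSH pool and 6614 in DSH+2.5%SF. None of 8 proximal tubule markers passed either. Their log2 ratios ran from −0.07 to 0.37, the highest being that of the organic anion transporter gene Slc22a6, with 5 above 0, 1 below and 2 tied.

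The start of the Kl gene is shown because Kl is the only one of the 3 genes past the criteria with a promoter in the RefSeq table used here. The window, from 250 bases before to 50 after the gene start, lies on the plus strand of rat build GRCr8 at chr12:5325753-5326052. Capitals mark GC boxes, the letters GGGCGG on either strand, a motif read by Sp1-type factors.
Kl: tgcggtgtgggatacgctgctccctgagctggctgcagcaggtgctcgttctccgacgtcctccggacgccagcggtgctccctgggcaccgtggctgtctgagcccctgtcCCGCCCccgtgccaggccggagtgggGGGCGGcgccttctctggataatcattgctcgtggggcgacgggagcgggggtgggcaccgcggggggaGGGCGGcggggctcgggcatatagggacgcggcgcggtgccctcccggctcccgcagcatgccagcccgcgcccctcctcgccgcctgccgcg
The window held 3 GC boxes, beginning at −138, −112 and −43 from the gene start. Of its bases 225 were G or C, against a median of 155 over 33469 rat windows of the same length. At least 1 GC box was found in 33.1% of all windows. Neither strand held a TATA box, searched as TATAAA, or a CCAAT box, searched by those letters. Nuclear receptor half-sites were searched as AGGTCA, the form shared by many such receptors, and as AGTTCA, a form common in vitamin D response elements. The variants that begin with G in place of A, which are GGGTCA in the former case and GGTTCA in the latter case, were included, and the Kl window held none of them.

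The remaining members of the FGF23 signal did not pass. Fgf23 itself was at 11.7 in the DSH pool and 10.9 in the other, below the median of all probe sets in both pools (log2 ratio −0.11). Bone is the main source of the hormone, and at this brightness the ratio is not read as an absence of change in the kidney. Fgfr1, the receptor most often paired with Klotho, was at 369 in the DSH pool and at 278 in the DSH+2.5%SF pool, 1.33-fold lower (log2 ratio −0.41, Z-score −1.30). Fgfr4, a receptor of the proximal tubule, was at 170 and 167 (log2 ratio −0.02).

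The 2 other FGF receptor kinases, named here to complete the family and outside the rule for named genes, were also on the lower side. Fgfr2 was at 90.4 in the DSH pool and 66.3 in DSH+2.5%SF (log2 ratio −0.45), and Fgfr3 was at 55.3 and 47.5 (log2 ratio −0.22). All 4 receptors thus had log2 ratios below 0 and none passed the criteria.

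Downstream of the receptors, 18 of 20 listed signalling genes had a probe set of their own, of which 1 was higher and 1 was lower, where the shares over all genes were 1.09% and 1.36%. Dusp6, a phosphatase that is induced by ERK signalling and turns ERK off, had an intensity of 159 in the DSH pool and of 67.9 in the DSH+2.5%SF pool, 2.35-fold lower. Sgk1, a kinase that FGF23 activates in mouse proximal tubule and that aldosterone induces in the distal nephron, was at 443 and 929, 2.10-fold higher. Both calls held against the neighbors in brightness, at Z-scores of −3.19 and 2.55. The adaptor genes Sos1, Grb2 and Frs2 had log2 ratios of 0.09, −0.45 and −0.07. The list had 13 genes below 0 and 4 above, and its median was −0.17. Over all 22093 genes 10497 were below 0 and 9578 above, with a median of 0.

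Dusp6 and Sgk1 thus stood on opposite sides. Egr1 and Spred1, other genes tied to ERK signalling that were added with their values known, were at −0.54 and −0.50 on the log2 scale and did not pass. Of the same list, Etv5 was at −0.32 and Etv4 had the same value in both pools, and both are also named with their values known. The Sprouty genes Spry1, Spry2 and Spry4, which are feedback inhibitors of FGF receptors, had log2 ratios of −0.04, −0.12 and −0.18 and were likewise named after the fact.

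None of the 7 genes listed under FGF23 production and processing, pyrophosphate genes among them, passed. Their median was 0, the value of a tied gene. Enpp1, a pyrophosphate-forming enzyme, was at 1133 in the DSH pool and 1566 with SF, and Fam20c, the kinase that phosphorylates FGF23, at 1507 and 1004. Furin, a protease that cleaves it, had a log2 ratio of 0.18. Galnt3, which protects it from cleavage by adding sugar, was listed at 656 in both pools, one of the tied genes. None of 10 other FGF ligands passed, with log2 ratios between −0.35 and 0.18. Among them Fgf9 was at 719 and 670, Fgf1 at 387 and 304, Fgf7 at 90.3 and 102, and Fgf2 at 34.0 and 28.9.

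Pth1r, the receptor through which parathyroid hormone acts on the tubule, was at nearly the same level in both pools, 270 in DSH and 258 in DSH+2.5%SF (log2 ratio −0.07, Z-score −0.29). Of the 19 listed genes of parathyroid hormone signalling 17 were measured and none passed, with 11 below 0, 5 above and a median of −0.15. The nearest to a call was Prkar1a, a regulatory subunit of protein kinase A, at 2600 in the DSH pool and 1664 in DSH+2.5%SF. It was 1.56-fold lower with a Z-score of −1.99, and it passed as lower by the ratio criterion alone and when 16 was added to each intensity before taking log2. Ezr and Pdzk1, which encode an anchor and a scaffold of the brush border membrane, had log2 ratios of −0.34 and −0.16, and the phospholipase gene Plcb1 had 0.43.

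The vitamin D receptor genes did not pass. Vdr was at 485 in the DSH pool and 572 in DSH+2.5%SF, 1.18-fold higher (log2 ratio 0.24, Z-score 0.61). Rxra, its dimer partner, was at 133 and 142 (log2 ratio 0.09). None of 15 measured genes of vitamin D metabolism, transport and receptor partners passed, and the median of that list was −0.01. Megalin and cubilin, encoded by Lrp2 and Cubn, take up filtered vitamin D with its carrier, and had log2 ratios of −0.07 and 0.01. Their adaptor gene Dab2 had −0.08, and Pdia3, a protein disulfide isomerase also described as a membrane receptor of calcitriol, was tied.

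**Figure D2:**
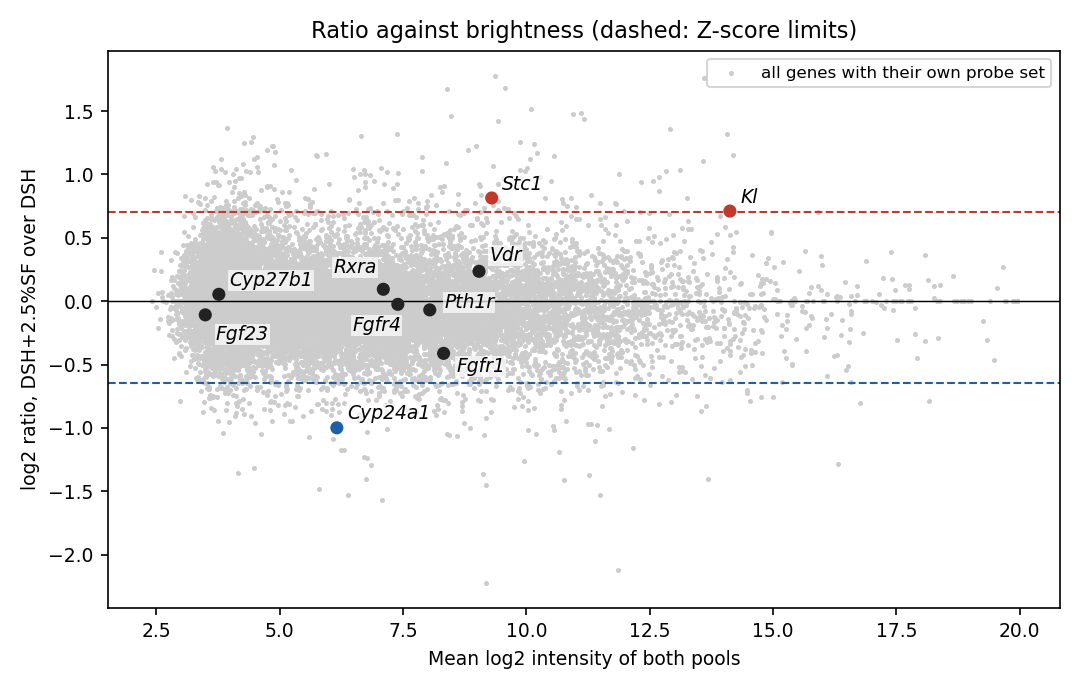
Log2 ratio of DSH+2.5%SF over DSH against the mean log2 intensity of both pools, with all 22093 genes in grey and the 10 axis genes labelled (red higher, blue lower, black not passed); dashed lines are the Z-score limits, 1.63-fold higher and 1.57-fold lower. Kl lies on the upper line, Stc1 above it and Cyp24a1 below the lower one, while the other 7 lie inside the cloud.

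Of the 2 enzymes of calcitriol only the degrading one was well above the dim end of the arrays. Cyp24a1, which starts that degradation, was at 101 in the DSH pool and at 50.6 in the DSH+2.5%SF pool (log2 ratio −0.999, Z-score −3.04). It stood at rank 40 from the bottom of 22093 genes. Its neighbors in brightness had an SD of 0.37, which gave a Z-score of −2.74, and it was the only one of the 3 calls that held there. With Z-scores taken in that way, 1.05% of all genes were higher and 0.883% were lower.

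Cyp27b1, which completes the synthesis of calcitriol, was at 13.4 in the DSH pool and 13.9 in DSH+2.5%SF. Both values were below the median of all probe sets and near the dim end of the array, at percentile 19.3 of brightness. No limit of detection was computed, and the near-equal values at that signal are not read as an absence of change. The ratio of synthesis to degradation could not be read from these arrays. Cyp2r1, which carries out the preceding step in liver, and Cyp27a1 are named for their roles, outside the rule for named genes, and did not pass.

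The Cyp27b1 window is printed beside that of Kl because the hormones of this axis act on the transcription of Cyp27b1. It lies on the plus strand of GRCr8 at chr7:64756376-64756675. Capitals mark a CCAAT box and a TATA box, both matched on the opposite strand, and 2 nuclear receptor half-sites.
Cyp27b1: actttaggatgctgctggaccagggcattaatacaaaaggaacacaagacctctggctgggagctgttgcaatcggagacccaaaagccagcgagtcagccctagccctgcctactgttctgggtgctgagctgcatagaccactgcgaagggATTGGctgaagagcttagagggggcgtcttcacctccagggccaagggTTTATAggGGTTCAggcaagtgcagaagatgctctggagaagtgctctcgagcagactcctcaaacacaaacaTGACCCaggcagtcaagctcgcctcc
Its CCAAT box began at −97 and its TATA box at −49, and the half-sites began at −41 and 24. In contrast to Kl it held no GC box, and 165 of its bases were G or C. Over all 33469 windows, 37.5% held a CCAAT box, 14.2% a TATA box and 44.4% a half-site. Of the 10 genes 6 had a window in the table (Kl, Fgfr4, Pth1r, Vdr, Rxra and Cyp27b1), and of these all but Cyp27b1 held a GC box. No window of the 6 held a pair of half-sites in the same direction with 3 bases between them, the form called DR3 that the vitamin D receptor prefers, and 0.0986% of all windows did. These are matches of letters and not measured binding.

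Stc1 encodes a secreted protein that was first known from fish as a calcium-lowering hormone and that raises phosphate reabsorption in the rat kidney. Its intensity was 475 in the DSH pool and 835 in the DSH+2.5%SF pool, 1.76-fold higher, with a log2 ratio of 0.81 and a Z-score of 2.32. It stood at rank 130 from the top of all genes. Against its neighbors in brightness, whose SD was 0.42, the Z-score was 1.92, and the call was lost. Of the other phosphaturic or phosphate-related factors, none passed. Sfrp4 (16.5 and 19.0) and Mepe (11.97 and 14.04) were below the median of all probe sets in both pools, and Stc2 (33.2 and 26.7, log2 ratio −0.31) was somewhat above it.

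**Figure D3:**
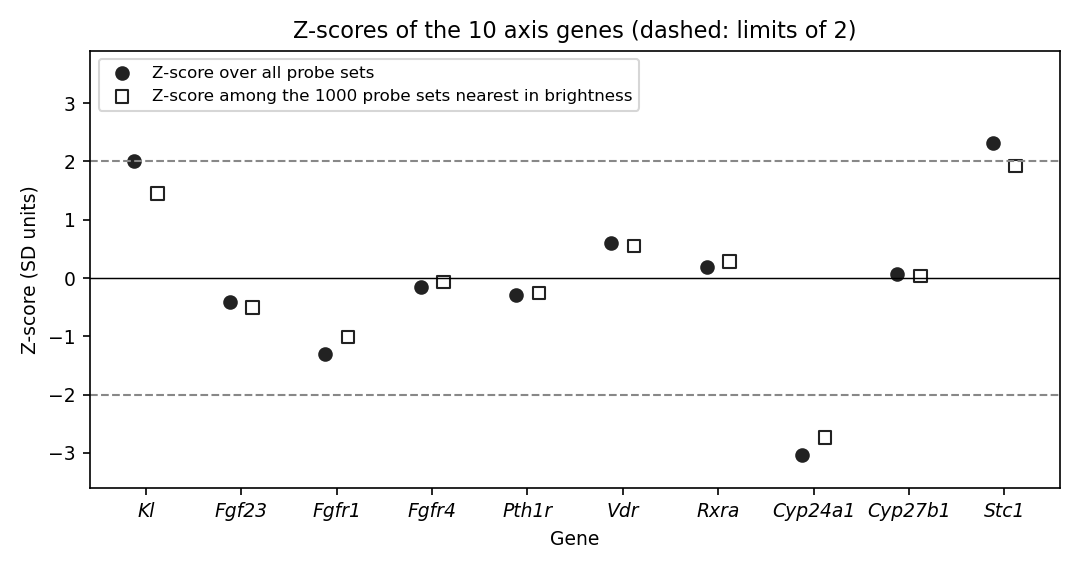
Z-score of each of the 10 genes over all probe sets (filled circles) and among the 1000 closest to it in brightness (open squares), with dashed lines at the limits of 2 and −2. Kl falls from 2.01 to 1.45 and Stc1 from 2.32 to 1.92, while Cyp24a1 stays below the lower limit at −2.74.

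Calcitriol acts on genes of the tubule, among them genes of calcium transport in its distal part. Of the 9 target genes listed, 1 was higher and none was lower, against 1.09% and 1.36% of all genes. Calb1, the calcium-binding protein calbindin of the distal and connecting tubule, had intensities of 10832 in the DSH pool and 27005 in the DSH+2.5%SF pool. That was 2.49-fold higher (log2 ratio 1.32, Z-score 3.81), a larger ratio than that of any of the 10 axis genes, and the Z-score was 2.58 against its neighbors. The apical calcium channel gene Trpv5 was at 566 and 759 (log2 ratio 0.42), and the calcium pump gene Atp2b1 at 1208 and 1090 (log2 ratio −0.15). Slc8a1, the sodium-calcium exchanger of the same cells, was at 379 and 575 (log2 ratio 0.60), passed by the ratio criterion alone, and was picked out after its value was seen. Spp1, which encodes osteopontin, was at −0.47 on the log2 scale. S100g (log2 ratio −0.09) and the calcium channel gene Trpv6 (tied) did not pass and were likewise named after their values were seen. The median of the 9 genes was 0.01.

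Cyp24a1 and Calb1, both induced by calcitriol in the kidney, thus stood on opposite sides of the 2 pools. Beside Calb1, the marker list of the connecting tubule and collecting duct held 5 genes, Aqp2, Avpr2, Scnn1b, Slc4a1 and Atp6v1b1. None of these 5 genes passed, 4 were below 0 and their median log2 ratio was −0.39, with a summed intensity of 5896 in the DSH pool and 5037 in DSH+2.5%SF. Aqp2, the water channel of principal cells, was at 2984 and 2347. Of all 9 listed target genes, 5 were above 0, 3 were below and 1 was tied. Trpv5 and Slc8a1 were above 0 with Calb1, and Atp2b1, S100g and Spp1 were below. Cldn2 and Atp2b4, named here only to complete the list, had log2 ratios of 0.17 and 0.01. The part of cell content in the ratio of Calb1 was not tested.

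Among the 6 phosphate transporters on which these hormones act or which export phosphate, 1 was lower. Slc34a2 was at 3563 in the DSH pool and at 1825 in the DSH+2.5%SF pool, 1.95-fold lower, with a Z-score of −2.94 over all probe sets and −1.98 among its neighbors in brightness. Slc34a1, which encodes NaPi2a, was tied at 103542. Xpr1, the phosphate exporter, had a log2 ratio of 0.17 and Slc20a2 one of −0.20. Slc34a3, which encodes NaPi2c and was added after its value was seen, was at 109 and 105.

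Over all 85 measured genes of the 8 wider lists, 2 passed as higher and 2 as lower, beside shares of 1.09% and 1.36% over all genes. Of the 85, 29 were above 0 and 46 below, beside 9578 and 10497 of all 22093 genes, and the median log2 ratio was −0.04.

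**Figure D4:**
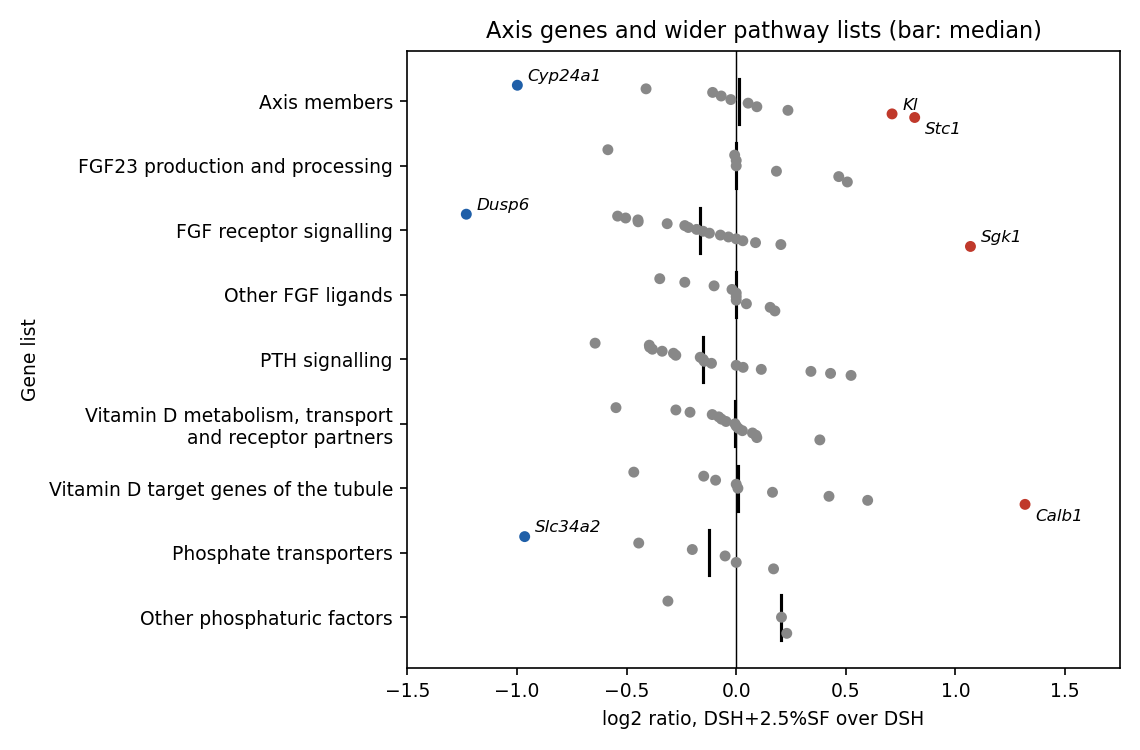
Log2 ratio of DSH+2.5%SF over DSH for the 10 axis genes and for each measured gene of the 8 wider lists (red higher, blue lower, grey not passed; black bars are medians). The calls lie far from the medians of their lists, and the list medians lie between −0.17 and 0.21.

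Markers of other cells were read in the same pools. Of 4 macrophage markers none passed. Cd68 was at 271 and 294 (log2 ratio 0.11) and the other 3 were below 0, and the 4 had a median of −0.38 and summed intensities of 802 in DSH and 682 in DSH+2.5%SF. All 3 endothelial markers were below 0 (median −0.19) and all 3 measured podocyte markers above 0 (median 0.15), and none of them passed. The podocyte markers had summed intensities of 2095 in DSH and 3133 in DSH+2.5%SF, most of it from Podxl. Podxl was at 1986 and 3014 (log2 ratio 0.60, Z-score 1.69), which met the ratio criterion but not that of the Z-score. Of the 3 thick ascending limb markers none passed, with Umod tied, Slc12a1 at −0.43 and Cldn16 at 0.16 on the log2 scale. Pth and Gcm2, which define parathyroid tissue, were below the median of all probe sets in both pools, and Star, the only measured marker of the adrenal cortex, was tied at 23.6. The part of these lists in the ratios of Kl, Cyp24a1 and Stc1 was not tested.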

How the data were processed

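Whole-kidney RNA, pooled from 3 rats per group, was read on 2 Clariom D rat arrays. The authors deposited linear intensities made with RMA, and the submitters' processing notes name Affymetrix Expression Console 1.4.1. RMA subtracts background, brings the arrays to a common distribution and combines the probes of a probe set into 1 value, so a general shift between pools would have been removed. The sources used here do not give their genome build.

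Log2 values and ratios were computed for all 68842 probe sets, of which 23446 have 1 gene symbol, 505 several and 44891 none that was used. The thresholds are those of the study, whose Z-score formula is not given. The 10 genes and the 8 lists were chosen with earlier results of these data known. Named genes are all 10 members, every list gene past the criteria and the 4 brightest genes of each list, with exceptions marked. The number of arrays limits the precision. Alternatives were other Z-scores, ratios, normalizations, probe set rules, a dim filter and a pseudocount. Promoters are from RefSeq, build GRCr8. Python 3.11.15, numpy 2.4.6, pandas 2.3.3, statsmodels 0.14.6 and matplotlib 3.10.9 were used.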

Additional observations from a re-analysis of the deposited data

How the results depend on the processing

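Of the 9 alternatives, 4 recompute the log2 ratios of the members (median centring, quantile, loess and log2 of intensity + 16) and 5 leave them as they are and bear only on the calls. Under those 4 each of the 3 called genes kept its direction, with log2 ratios between 0.66 and 0.80 for Kl, 0.77 and 0.85 for Stc1, and −1.05 and −0.81 for Cyp24a1. Kl passed under 6, Stc1 under 7 and Cyp24a1 under 8 of the 9. Some of these passes could not fail. The ratio criterion alone is looser than the main rule, and the mean of all probe sets changes nothing for members with 1 probe set. Median centring also left every Z-score as it was. With the Z-score taken among the 1000 probe sets of closest brightness, 0 members were higher and 1 was lower, and of the wider lists 1 gene (Dusp6) instead of 2 was lower. With the stricter ratio limits of 2 and 0.5, 0 members were higher and 0 lower, since Cyp24a1 missed that limit with 50.05% of its DSH level, and 1 gene of the wider lists was lower. With dim probe sets left out, which removes Fgf23 and Cyp27b1, 1 member was higher (Stc1), because the SD over the remaining probe sets was larger and the Z-score of Kl was 1.77. By the ratio criterion alone, 3 genes of the wider lists were higher and 3 lower, Slc8a1 and Prkar1a being added, and with log2 of intensity + 16 Prkar1a was added. No member outside these 3 passed under any alternative. Centring the arrays on their medians shifted the median of all genes by −0.05. No replicate could be left out, and no paired analysis was possible because each group holds 1 pool. No limit of detection was computed for Fgf23 and Cyp27b1, which were dim in both pools, and their ratios are not read as an absence of change.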
